A study of Homo sapiens with 6 samples.

Results

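The 9 enzymes described here carry squalene to cholesterol, namely SQLE, LSS, CYP51A1, MSMO1, NSDHL, HSD17B7, EBP, SC5D and DHCR7 in the order of the pathway. They were found by gene symbol among the 23062 identifiers of each table, and all 9 had 1 row with a value above 0 in all 6 libraries. The set was selected on earlier results of the same data, in which genes of cholesterol synthesis had lower values in taraxasterol (TAX)-treated than in control cells. The comparison of TAX with control is therefore given for them as a description, without a p-value. DU145 is an androgen-independent prostate cancer line that came from a brain metastasis, and it was labelled as wild type. Total RNA was sequenced from 3 control samples kept in MEM medium and from 3 samples treated with TAX at its IC50, each for 48 h, and both groups were grown with fetal bovine serum. TAX was dissolved in DMSO, and no source used here says that the control samples received DMSO, so the effects of solvent and TAX cannot be told apart. The labels do not say whether the samples of a group were separate cultures, so the spread between them may be technical.

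Cholesterol is built from acetyl-CoA by the mevalonate arm of the pathway, which ends in squalene, a linear hydrocarbon. The enzymes after squalene add oxygen, close the sterol rings and remove methyl groups. They then shift, add and reduce double bonds until cholesterol is formed in the membrane of the endoplasmic reticulum. Transcription of most of these genes is raised by SREBP-2, a factor that is released from the endoplasmic reticulum when the membrane holds little cholesterol and that INSIG proteins keep there when sterols are plentiful. TAX is itself a pentacyclic triterpene, a class of plant compounds made from oxidosqualene, the molecule that SQLE makes and LSS closes into a sterol.

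The values were taken as FPKM, the number of fragments scaled by transcript length and by library size. Where values of single libraries are listed, they follow the order of replicates 1, 2 and 3. They summed to between 322483 and 363724 FPKM per library, and the read depth is unknown. Of the markers used to check the label, EPCAM, KRT8, KRT18 and CDH1 of epithelial cells lay between 40.7 and 173 FPKM in all libraries, while KLK3 and TMPRSS2, which mark luminal prostate cells, were at or under 0.0191 FPKM. The epithelial markers, of which EPCAM and KRT18 were higher under TAX without overlap, summed to 330 to 425 FPKM in control and 413 to 455 FPKM in TAX libraries. The 4 markers of leukocytes, endothelium and fibroblasts summed to 1.93 to 2.08 FPKM in control and 1.43 to 1.49 FPKM in TAX libraries, nearly all of it from COL1A1, with COL1A2 at 0 and PTPRC and PECAM1 at or under 0.0271 FPKM. The part of these marker differences in the results was not tested. Control replicate 3 stood apart in scale. The median of all 12359 genes tested lay 0.10 below the control mean on the log2(FPKM + 1) scale in that library. The log2 fold changes of LSS, CYP51A1, HSD17B7, EBP and DHCR7 are therefore also given without it. Values without it are not given for every gene.

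In control cells the 9 mRNAs were abundant and spanned a wide range of levels. DHCR7, the reductase that can form cholesterol in the last step, was the highest with 111 ± 12.9 FPKM (SD, n = 3), and SC5D, the desaturase that acts just before it, was the lowest with 13.1 ± 0.545 FPKM (SD, n = 3), an 8.47-fold difference in level per length. DHCR7 lay above 97.9% and SC5D above 75.0% of the 19874 genes with a control mean above 0. Between them the order of control means was CYP51A1, SQLE, MSMO1, EBP, LSS, HSD17B7 and NSDHL. The control ranges of SQLE and MSMO1 overlapped, as did those of LSS and HSD17B7 and those of HSD17B7 and NSDHL, so these neighbours were not separated by their spread between libraries, although within each of the 6 libraries the gene named first was the higher one. The other neighbours in this order had ranges that did not overlap. In TAX-treated cells the order of means was the same except that MSMO1 and EBP changed places, since MSMO1 was above EBP in 3 of 3 control libraries and in 0 of 3 TAX libraries.

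**Figure D1:**
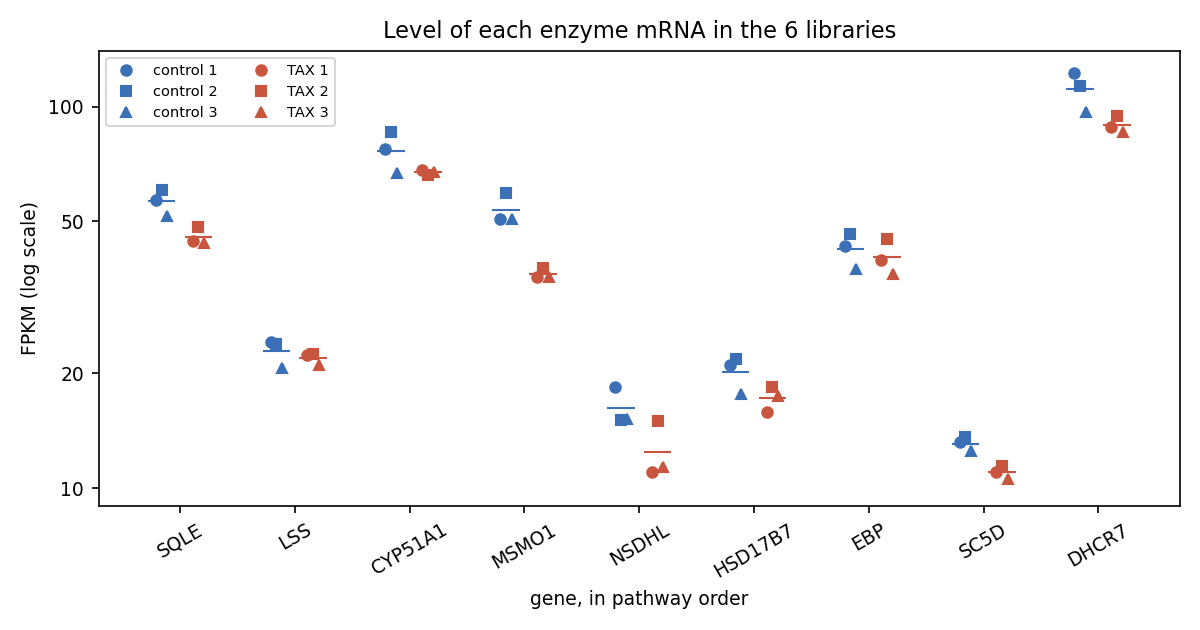
FPKM of each enzyme mRNA (log scale) in the 3 control and 3 TAX libraries, with 1 symbol per library and a short line at each group mean, in pathway order. DHCR7 is highest and SC5D lowest in both groups, and the TAX symbols of SQLE, MSMO1, NSDHL, SC5D and DHCR7 lie below all their control symbols.

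All 9 mRNAs had a lower mean in TAX-treated than in control cells, where 30.9% of all genes tested had a lower mean. The median log2 fold change of the 9 genes on the log2(FPKM + 1) scale was -0.23, while that of all genes tested was 0.05. At an adjusted p under 0.05 (limma, Benjamini-Hochberg over all genes tested), 1 of the 9, MSMO1, was called lower, against 0.162% of all genes. At an unadjusted p under 0.05, 5 of the 9 were lower, against 2.41% of all genes, and the same 5 were lower without overlap between the groups, against 3.34% of all genes. These 5 were SQLE, MSMO1, NSDHL, SC5D and DHCR7. No member was called higher, where 0.316% of all genes were higher at an adjusted p under 0.05, 7.73% were higher at an unadjusted p under 0.05 and 14.6% were higher without overlap. Because the members were chosen from this comparison, nothing is read from these counts. The summed FPKM of the 9 mRNAs was 412 ± 37.3 in control and 342 ± 15.4 in TAX-treated cells (SD, n = 3 each), and the lowest control sum, 370 in replicate 3, was above the highest TAX sum, 359 in replicate 2.

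SQLE, which adds oxygen to squalene and is a control point of the pathway, lies on chromosome 8 from 124998497 to 125022283 in GENCODE 29 (GRCh38), the genome build that the labels name. Its FPKM was 57.0, 60.5 and 51.8 in the controls and 44.4, 48.5 and 43.8 under TAX. All TAX values lay below all control values, with a mean 19.3% lower and a log2 fold change of -0.30 (SE 0.0874). LSS, the cyclase that folds oxidosqualene into lanosterol, lies on chromosome 21 from 46188141 to 46228824. Its FPKM was 24.2, 23.8 and 20.7 in the controls and 22.3, 22.4 and 21.1 under TAX. The groups overlapped and the log2 fold change was -0.06 (SE 0.0849), a difference within the spread between replicates. It was -0.03 without TAX replicate 3, -0.02 without control replicate 1, -0.03 without control replicate 2 and -0.12 without control replicate 3.

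CYP51A1, the cytochrome P450 that removes a methyl group from lanosterol, lies on chromosome 7 from 92112151 to 92134803. Its FPKM was 77.5, 85.5 and 66.8 in the controls and 68.3, 66.3 and 67.6 under TAX. The TAX values lay close together, and control replicate 3 lay among them, so the groups overlapped with a log2 fold change of -0.18 (SE 0.0975). It was -0.27 without control replicate 3 and -0.09 without control replicate 2. CYP51A1 shares its strand and part of its sequence with a pair of longer annotated genes, AC000120.2 and AC000120.3. AC000120.2 was listed at 0 in every library, and AC000120.3 averaged 2.13 ± 1.58 FPKM in the controls and 0.652 ± 0.217 FPKM under TAX (SD, n = 3 each), without overlap, so the share of reads that could be assigned otherwise is uncertain. Antisense genes overlap CYP51A1, LSS and DHCR7 on the other strand, and no source used here says whether strand was used in the counting. GENCODE 29 also lists 3 pseudogenes of CYP51A1 and 2 of HSD17B7, which were not analysed here.

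MSMO1, NSDHL and HSD17B7 act in turn to strip methyl groups from the sterol ring. MSMO1, the monooxygenase that oxidizes these methyl groups, lies on chromosome 4 from 165327623 to 165343160. Its FPKM was 50.7, 59.2 and 50.7 in the controls and 35.7, 37.8 and 35.8 under TAX, so a wide gap separated the groups. MSMO1 fell by 0.54 on the log2 scale (SE 0.0869), with a mean 31.9% lower, the largest difference of the 9. This call was lost in every comparison that left out 1 library, in which the log2 fold change stayed between -0.58 and -0.47. NSDHL, the dehydrogenase that removes the oxidized carbon, lies on chromosome X from 152830967 to 152869729. Its FPKM was 18.4, 15.1 and 15.2 in the controls and 11.01, 14.97 and 11.4 under TAX. TAX replicate 2 came close to the lowest control value, and the log2 fold change was -0.36 (SE 0.121). HSD17B7, the reductase that completes this step, lies on chromosome 1 from 162790702 to 162812817. Its FPKM was 21.1, 21.8 and 17.7 in the controls and 15.8, 18.4 and 17.5 under TAX, with overlap and a log2 fold change of -0.21 (SE 0.0973). This log2 fold change was -0.30 without control replicate 3 and -0.16 without TAX replicate 1.

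EBP moves, SC5D adds and DHCR7 reduces a double bond of the ring. EBP, the isomerase, lies on chromosome X from 48521158 to 48528716. Its FPKM was 43.2, 46.4 and 37.4 in the controls and 39.6, 45.1 and 36.4 under TAX. The groups overlapped broadly, and the log2 fold change of -0.07 (SE 0.106) was within the spread between replicates. It was 0.0023 without TAX replicate 3, -0.00077 without control replicate 2, and -0.15 without either TAX replicate 2 or control replicate 3. SC5D, on chromosome 11 from 121292453 to 121308694, had 13.2, 13.6 and 12.5 FPKM in the controls and 11.1, 11.4 and 10.6 FPKM under TAX. Both groups were narrow and did not overlap, with a log2 fold change of -0.23 (SE 0.0766). DHCR7, on chromosome 11 from 71428193 to 71452868, had 122, 113 and 96.9 FPKM in the controls and 88.3, 94.2 and 85.5 FPKM under TAX. Its log2 fold change was -0.30 (SE 0.0995), and the gap between the groups was small because control replicate 3 was only slightly above TAX replicate 2. This log2 fold change was -0.40 without control replicate 3 and -0.23 without control replicate 1.

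Replicates of 1 group varied together in these genes. In control replicate 3 all 9 mRNAs were below the control mean, by 0.13 on average on the log2(FPKM + 1) scale, in the library whose median over all genes was 0.10 below. In TAX replicate 2, 8 of the 9 were above the TAX mean, by 0.088 on average, although the median over all genes there was only 0.0088 above. Without control replicate 3, 8 of the 9 mRNAs were lower in TAX without overlap, against 13.4% of all genes, EBP being the exception. After scaling of each library to the same sum, again 8 of the 9 did not overlap, against 6.26% of all genes. On that scale the mean under TAX was between 0.667 (MSMO1) and 0.941 (LSS) times that of the controls.

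**Figure D2:**
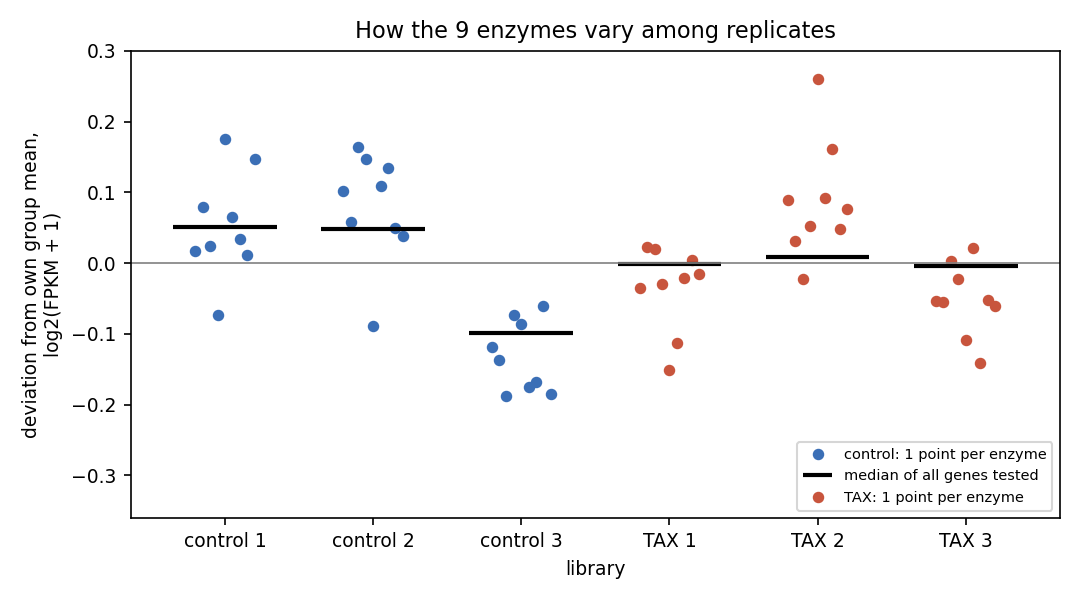
Deviation of each of the 9 mRNAs from the mean of its own group on the log2(FPKM + 1) scale, with 1 point per gene in each library and a black line at the median of all genes tested. All 9 points of control replicate 3 lie below 0, around a black line at -0.10, and 8 of 9 points of TAX replicate 2 lie above 0.

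Ratios between genes of the same library do not depend on the scale of that library. The pairs given here were chosen after the values were seen. The ratio of MSMO1 to LSS was 2.09, 2.48 and 2.45 in the controls and 1.60, 1.68 and 1.70 under TAX. For SQLE over LSS it was 2.36, 2.54 and 2.51 in the controls and 1.99, 2.16 and 2.08 under TAX. In both pairs every TAX library was below every control library, which follows in part from how the pairs were chosen, and nothing is read from it.

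**Figure D3:**
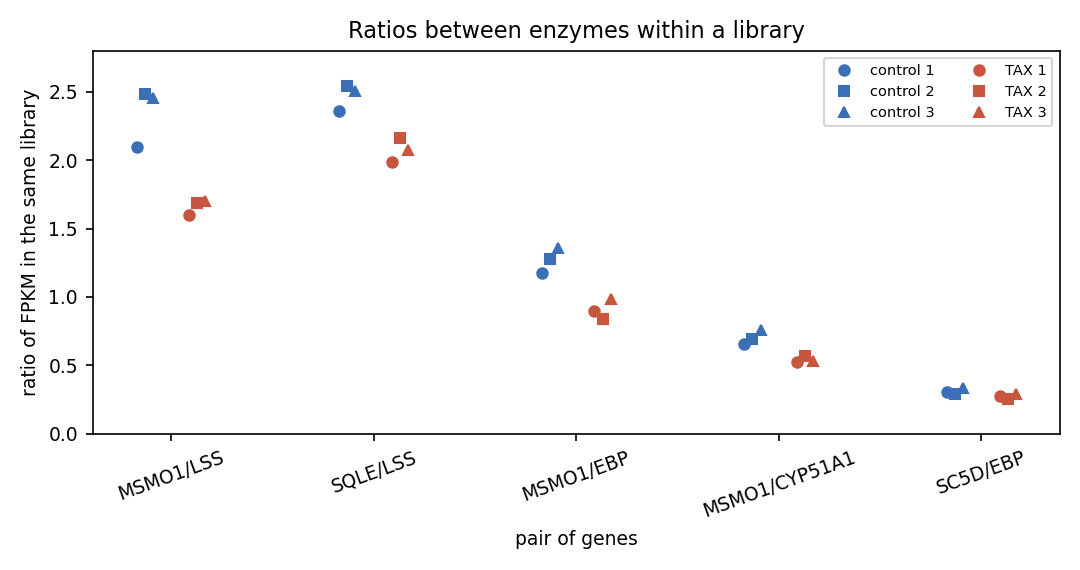
Ratio of the FPKM of pairs of genes within each library, with 1 symbol per library. In the 5 pairs shown all 3 TAX symbols lie below all 3 control symbols, by most for MSMO1 to LSS, 2.34 ± 0.216 in control and 1.66 ± 0.0543 in TAX-treated cells (SD, n = 3 each).

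The promoters of the genes were read to see what they share in sequence. RefSeq promoter windows (GRCh38.p14) of 250 bases before and 50 bases after a start site were at hand for 8 of the 9 genes, all but SQLE, and 1 window per gene was searched on both strands. The RefSeq start used lay 4475 bases inside the GENCODE 29 start of DHCR7, 650 inside that of EBP, 326 inside that of CYP51A1 and 318 inside that of SC5D, and at most 96 bases inside it in the other 4 genes, so the matches depend on which start was taken. CCAAT, the site of the SREBP partner NF-Y, was present in 7 of the 8 windows, where 35.7% of 27305 promoters held it. MSMO1 had 4 and NSDHL had 5 such matches, of which 1 pair in NSDHL overlaps, and CYP51A1 had 0. GGGCGG, a site of Sp1, was present in 7 of the 8, where 44.6% of promoters held it. TCACNCCAC, which follows the sterol regulatory element bound by SREBP, was found in 0 of the 8 windows and in 1.15% of all promoters. The looser TCACNCNAC, which includes it, was found in HSD17B7 alone and in 2.57% of all promoters. A match is only a run of letters, and windows without one say nothing about binding.

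The stretches below were picked to cover the member with the largest difference and a member whose groups overlapped (MSMO1 and LSS). They also cover the most CCAAT matches (NSDHL) and the sole match to TCACNCNAC (HSD17B7). No contrast between promoters is read from this choice. Each is 150 bases, 5′ to 3′ on the strand of the gene, and ends before the start of the gene in both RefSeq and GENCODE 29. Capitals mark CCAAT on either strand (ATTGG on the other) and, in HSD17B7, the match to TCACNCNAC. They lie at chr4:165327473-165327622 (plus strand), chr21:46228825-46228974 (minus strand), chrX:152830817-152830966 (plus strand) and chr1:162790552-162790701 (plus strand).
MSMO1: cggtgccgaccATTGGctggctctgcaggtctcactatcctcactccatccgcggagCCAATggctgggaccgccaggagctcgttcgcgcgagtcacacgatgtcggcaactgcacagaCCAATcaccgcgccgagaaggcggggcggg
LSS: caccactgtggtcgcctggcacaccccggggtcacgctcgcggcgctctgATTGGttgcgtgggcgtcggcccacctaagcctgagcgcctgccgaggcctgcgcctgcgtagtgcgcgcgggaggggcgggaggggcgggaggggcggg
NSDHL: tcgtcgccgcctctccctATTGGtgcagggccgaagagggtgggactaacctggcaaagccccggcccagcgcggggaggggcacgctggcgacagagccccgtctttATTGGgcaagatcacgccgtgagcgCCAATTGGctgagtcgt
HSD17B7: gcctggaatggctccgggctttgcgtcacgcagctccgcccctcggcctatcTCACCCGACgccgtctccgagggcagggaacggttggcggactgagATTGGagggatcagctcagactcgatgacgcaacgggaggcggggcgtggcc
The stretch of MSMO1 holds 3 CCAAT matches, that of NSDHL 4, and those of LSS and HSD17B7 1 each.

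The other genes of the segment did not all follow the 9 enzymes. TM7SF2 and LBR both encode reductases that act after CYP51A1. TM7SF2 had 23.4, 22.4 and 18.7 FPKM in the controls and 15.4, 17.9 and 15.9 FPKM under TAX, without overlap and with a log2 fold change of -0.37 (SE 0.10). LBR, which also anchors chromatin at the nuclear envelope, averaged 43.8 ± 2.15 FPKM in the controls and 45.0 ± 0.405 FPKM under TAX (SD, n = 3 each), a log2 fold change of 0.04 (SE 0.0766) within the spread between replicates. The difference between these reductases was not tested. ERG28, a membrane scaffold for these enzymes, averaged 22.6 ± 2.96 FPKM in the controls and 19.3 ± 0.746 FPKM under TAX (SD, n = 3 each), with overlap.

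Of the 9 genes of the mevalonate arm, 8 had a lower mean in TAX-treated cells, where 30.9% of all genes tested did, with a median log2 fold change of -0.26 beside 0.05 for all genes. Genes of this arm were among those on which the choice of the 9 enzymes rested, so this is no independent evidence. At an adjusted p under 0.05, 0 of them passed (limma), while 6 were lower and 0 higher at an unadjusted p under 0.05, where 2.41% and 7.73% of all genes were. The largest difference was in MVK, the mevalonate kinase, with a log2 fold change of -0.56 (SE 0.161). PMVK, the kinase that acts after MVK, was the exception, averaging 16.1 ± 0.414 FPKM in the controls and 17.6 ± 0.730 FPKM under TAX (SD, n = 3 each).

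**Figure D4:**
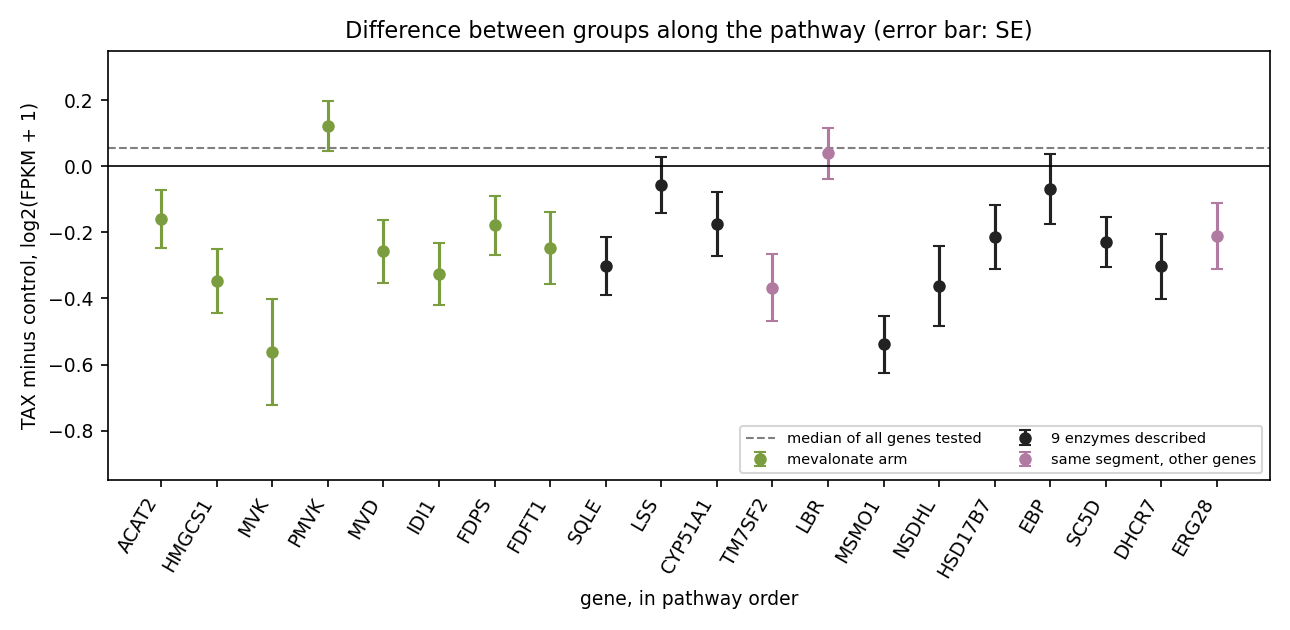
TAX minus control on the log2(FPKM + 1) scale with its SE for genes from ACAT2 to DHCR7 in pathway order, with the scaffold ERG28 last (black: the 9 enzymes; green: mevalonate arm; purple: other genes of the segment; dashed line: median of all genes tested, 0.05). PMVK and LBR lie above 0 and the others below, MVK and MSMO1 lowest at -0.56 and -0.54.

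Genes that serve or control the enzymes were described by the same comparison. In none of the lists that follow did a gene pass at an adjusted p under 0.05 (limma). Of 5 electron carriers that pass electrons to SQLE, CYP51A1, MSMO1 or SC5D or bind such enzymes, 0 passed at an unadjusted p under 0.05 either. At that threshold 2.41% of all genes were lower and 7.73% higher. The median log2 fold change of the 5 carriers was 0.03, beside 0.05 for all genes. The carriers with the largest differences were CYB5A with -0.11 (SE 0.121) and PGRMC1 with 0.05 (SE 0.0774), both within the spread between replicates. POR, the reductase that supplies SQLE and CYP51A1, averaged 17.3 ± 1.23 FPKM in the controls and 17.8 ± 1.21 FPKM under TAX (SD, n = 3 each).

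Of 9 tested genes of SREBP control and sterol uptake, 6 had a lower mean, where 30.9% of all genes tested did. At an unadjusted p under 0.05 (limma), 2 were lower, INSIG1 and STARD4, where 2.41% of all genes were. The same 2 were lower without overlap, where 3.34% of all genes were. INSIG1, which retains SREBP in the endoplasmic reticulum and is itself a target of SREBP, had 32.3, 34.8 and 26.7 FPKM in the controls and 19.6, 23.4 and 21.2 FPKM under TAX, a log2 fold change of -0.52 (SE 0.108) without overlap. STARD4, a carrier of cholesterol in the cytosol, had a log2 fold change of -0.29 (SE 0.115), also without overlap. SREBF2, the gene of SREBP-2 itself, averaged 55.8 ± 7.06 FPKM in the controls and 51.5 ± 1.25 FPKM under TAX (SD, n = 3 each), with overlap. The median of these 9 genes was -0.04, beside 0.05 for all genes.

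Of 4 ubiquitin ligases of the endoplasmic reticulum, among them MARCHF6, which marks SQLE protein for degradation, 0 passed at an unadjusted p under 0.05. At that threshold 2.41% of all genes were lower and 7.73% higher. Of the 4 ligases, 0 had a lower mean in TAX-treated cells, where 30.9% of all genes did. Their median log2 fold change was 0.14, beside 0.05 for all genes. RNF139 had a log2 fold change of 0.15 (SE 0.0842), with overlap. The RNA values do not measure the amount or activity of the enzymes.

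The mean of the z-scores of the 9 mRNAs gave 1 profile over the 6 libraries, 0.98, 1.16 and -0.21 in control and -0.79, -0.17 and -0.97 under TAX. Control replicate 3 and TAX replicate 2 lay side by side in this profile. Among the members, SQLE had the highest Pearson's r with it, 0.976, and EBP the lowest, 0.764, over 6 libraries that also share their scale and treatment. Each member is part of the profile, so a high r of a member follows in part from how the profile was built. The 10 other genes with a symbol and the highest r, from 0.971 to 0.996, were RAB5B, FBXO2, ST14, TM7SF2, KCNK1, BORCS5, DEPP1, BCORL1, AC074143.1 and TGFBI. TM7SF2 was the 1 gene of sterol synthesis among them, at rank 4, and INSIG1 followed at rank 18 of all genes outside the 9.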

How the data were processed

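RNA-seq libraries of DU145 cells (3 control, 3 TAX) were grouped by the titles in the labels. The authors deposited 1 table per library, without read counts, whose values were taken as FPKM because they are decimals with unequal sums. HISAT2 2.2.0, StringTie 2.1.2 and GRCh38 are named in the submitters' processing notes, while annotation and filters are not given in the sources used here. A gene was tested when 3 or more of the 6 libraries reached 1 FPKM, which left 12359 genes, and log2(FPKM + 1) of the deposited values was fitted with limma 3.58.1 (R 4.3.3, eBayes with trend, no covariate), with Benjamini-Hochberg adjustment over all of them. The pseudocount understates changes of low genes. The fit was tested on simulated data in which genes varied independently. The planted changes were larger than any difference of the 9 enzymes, so that test does not cover differences of their size. Medians of lists are given beside that of all genes, without a test of the list. Positions are from GENCODE 29 by gene name. Named genes were the 9 members, 4 other genes of the segment, in each other list the genes with an adjusted p under 0.05 and the 2 with the largest difference, marker genes, the 10 genes most like the member profile, and paralogs of the members. Some genes of these lists are counted in them and not reported here by name. PMVK, POR, SREBF2 and MARCHF6 were named after their values were seen. The members and lists were chosen with earlier results of these data known. Alternatives were a pseudocount of 0.1, other filters, 3 other scalings, limma without trend, a replicate block and leaving out each library. Features of the proteins were planned and not analysed here.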

Additional observations from a re-analysis of the deposited data

How the results depend on the processing

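The 9 enzymes had a median log2 fold change between -0.30 and -0.20 in all 14 alternatives, and a median of -0.31 to -0.25 relative to all genes. In all 14, at least 8 of the 9 had a lower mean. The 1 reversal was EBP, at 0.0023 without TAX replicate 3, in a range of -0.15 to 0.0023 with 1 library left out. The number of members called lower at an adjusted p under 0.05 was 2 (SQLE and MSMO1) after quantile normalization and after libraries were centred on their medians, 0 with no filter on low values, 0 with the replicate block, and 0 to 0 when 1 library was left out. Members lower at an unadjusted p under 0.05 were 8 after quantile normalization (5.79% of all genes) and 3 to 7 with 1 library left out, the 3 without TAX replicate 3 (1.73%) and the 7 without control replicate 3 (5.59%). Members lower without overlap were 8 after centring (9.53% of all genes), after scaling to the same sum (6.26%) and after quantile normalization (8.16%), and 5 to 8 with 1 library left out, the 8 without control replicate 3 (13.4%), so these counts rose together with the share over all genes. Over all genes, 39 were called higher and 20 lower. These counts were 46 and 50 after centring, 47 and 48 after quantile normalization, 25 and 12 with a filter of 0.1 FPKM, 0 and 1 with no filter, and 13 and 13 with the replicate block. With 1 library left out they were 9 to 28 higher and 8 to 15 lower. Of the other pathway genes 0 were called lower, where 20 of all genes were. The count was 1 after scaling to the same sum (26 of all genes), 2 after centring (50) and 2 after quantile normalization (48). It was 0 to 0 with 1 library left out (8 to 15 of all genes). At an unadjusted p under 0.05 (limma), 9 of the other pathway genes were lower (2.41% of all genes), 15 after centring (6.59%) and 16 after quantile normalization (5.79%). With 1 library left out the count was 6 to 14, the 6 without control replicate 2 (2.18%) and the 14 without control replicate 3 (5.59%). The larger counts came with a larger share over all genes, and nothing is read from them. The causes were not tested. Groups share replicate numbers, and the deviations of same-numbered libraries correlated at -0.12, -0.33 and -0.17. For libraries of unlike number the correlations lay between -0.17 and 0.29. With 3 libraries per group, these values cannot decide whether the numbers pair the samples, so the block result is only a value. Depth is unknown, and the spread of 3 libraries limits every comparison.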

Other observations

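Products of the pathway beside cholesterol were also read. Of 8 genes of the branches that lead from the mevalonate arm to dolichol, ubiquinone and prenylated proteins, 1 had a lower mean in TAX-treated cells, where 30.9% of all genes tested did, and the median log2 fold change of 0.06 lay close to the 0.05 of all genes, and 0 passed at an adjusted p under 0.05 (limma). DHDDS, a subunit of the enzyme that makes the dolichol chain, had 8.08, 8.08 and 7.24 FPKM in the controls and 9.36, 9.22 and 9.17 FPKM under TAX, without overlap. FNTA, a subunit of protein farnesyltransferase, averaged 44.4 ± 1.70 FPKM in the controls and 49.6 ± 0.958 FPKM under TAX (SD, n = 3 each), also without overlap. At an unadjusted p under 0.05 (limma), 1 gene of this list, DHDDS, was higher and 0 were lower, where 7.73% and 2.41% of all genes were. Without overlap, 2 of the 8 were higher, DHDDS and FNTA, where 14.6% of all genes were. Nothing is read from these counts. The difference between these branches and the sterol branch was not tested.

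Of 10 genes of sterol storage, oxidation and efflux, 6 had enough FPKM to be tested. At an unadjusted p under 0.05, where 2.41% of all genes were lower and 7.73% higher, 0 of these 6 passed in either direction. Their median log2 fold change was 0.02, beside 0.05 for all genes. NPC2, which carries cholesterol out of the lysosome, averaged 101 ± 8.10 FPKM in the controls and 107 ± 4.18 FPKM under TAX, and LIPA, the lysosomal lipase of cholesterol esters, had 57.5 ± 3.83 and 54.3 ± 0.547 FPKM (SD, n = 3 each). EBPL, a paralog of EBP, averaged 26.3 ± 3.41 FPKM in the controls and 26.0 ± 2.19 FPKM under TAX (SD, n = 3 each).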
